A study of Drosophila melanogaster with 4 samples.

Results

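The genes described here are 10 members of the ELOVL family of fatty acid elongases, which build very long chain fatty acids, in nuclei of the adult male *Drosophila* abdominal cuticle. The members are *bond*, *Elo68alpha*, *CG8534*, *CG5326*, *Baldspot*, *CG31522*, *CG31523*, *eloF*, *CG9458* and *CG9459*. They were taken by name, and all 10 were found among the 13955 genes of the count tables. The tables hold 10 further ELOVL genes, which serve as company for the members below.

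An ELOVL enzyme carries out the first step of each elongation cycle in the endoplasmic reticulum, in which a fatty acyl-CoA is condensed with malonyl-CoA. A ketoreductase, a dehydratase and an enoyl reductase finish the cycle, and the choice of ELOVL enzyme largely sets the chain lengths that are made. In flies, very long chain fatty acids feed the cuticular hydrocarbons, which oenocytes make for waterproofing and mate recognition, and the lipid pheromones of the male ejaculatory bulb.

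Nuclei were profiled by droplet-based single-nuclei RNA-sequencing (snRNA-seq), in which a count is a unique molecular identifier (UMI), that is, 1 captured transcript. The 2 *oenots>tsc1,tsc2* libraries came from w1118 males that carried UAS-Tsc1, UAS-Tsc2/+ together with the driver PromE-GAl4, tub-Gal80ts/+ and in which Tsc1 and Tsc2, brakes on TOR signaling and growth, are over-expressed. The 2 *oenots>EGFP* libraries, the control, came from w1118 males that carried UAS-2xEGFP/+ together with the same driver, also over +. Both genotypes thus carried the oenocyte driver PromE-Gal4 and a temperature-sensitive Gal80 that holds it silent at 18 °C, and both were moved to 29 °C for 4 days on standard food per the labels, whereas the study's methods for over-expression also describe a high sugar diet. According to the paper, this driver is expressed in the male accessory glands as well. Each library pooled 40 abdomens from which the gut and the male reproductive organs had been dissected away, and the labels do not say whether the libraries of a genotype came from separate crosses, so the p-values below measure the spread between these libraries only. The paper treats the genotypes as 2 data sets and corrected for batch effects when it analysed them together. A difference between the genotypes therefore cannot be told apart here from a difference between the data sets.

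The libraries held 7594 and 2267 nuclei for *oenots>tsc1,tsc2*, and 7213 and 8067 nuclei for *oenots>EGFP*, with median depths of 372 to 468 UMIs per nucleus. *Tsc1* and *gig*, which encodes Tsc2, were not analysed here, so the genotype labels were not checked with the over-expressed genes. Levels are given as CPM, a gene's UMIs per 1000000 UMIs of the same nuclei, with the nuclei of a tissue summed within a library. Oenocytes carried all 12 listed oenocyte markers, summing to 111201 and 121262 CPM in the deposited oenocyte clusters of the 2 control libraries. The deposited clusters 11, 12 and 14, here called bulb-like, carried all 18 listed ejaculatory bulb markers in *oenots>EGFP* replicate 1, at 147778 CPM, but 11 of 18 at 1792 CPM in replicate 2. The bulb-like clusters of control replicate 2 thus carried little bulb marker RNA, and its bulb-like values are given apart. Deposited cluster 3, which the study counts as muscle, had 77215 and 66577 CPM of 8 cuticle markers and 35795 and 34109 CPM of 14 muscle markers, and is called epidermis here.

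Over the 16 deposited clusters of control nuclei, the 10 members fell into a set of genes high in oenocytes and a set high in bulb-like nuclei. *CG31523*, *CG9458* and *CG9459* were high in the oenocyte clusters 1 and 6 of both libraries, whereas *bond*, *Elo68alpha*, *CG5326* and *Baldspot* were each high in 1 bulb-like cluster of replicate 1. *CG31522* was spread over most clusters, *eloF* was low, and *CG8534* was nearly absent from the control. The authors' clustering used all variable genes, so these levels are a description and were not tested.

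**Figure D1:**
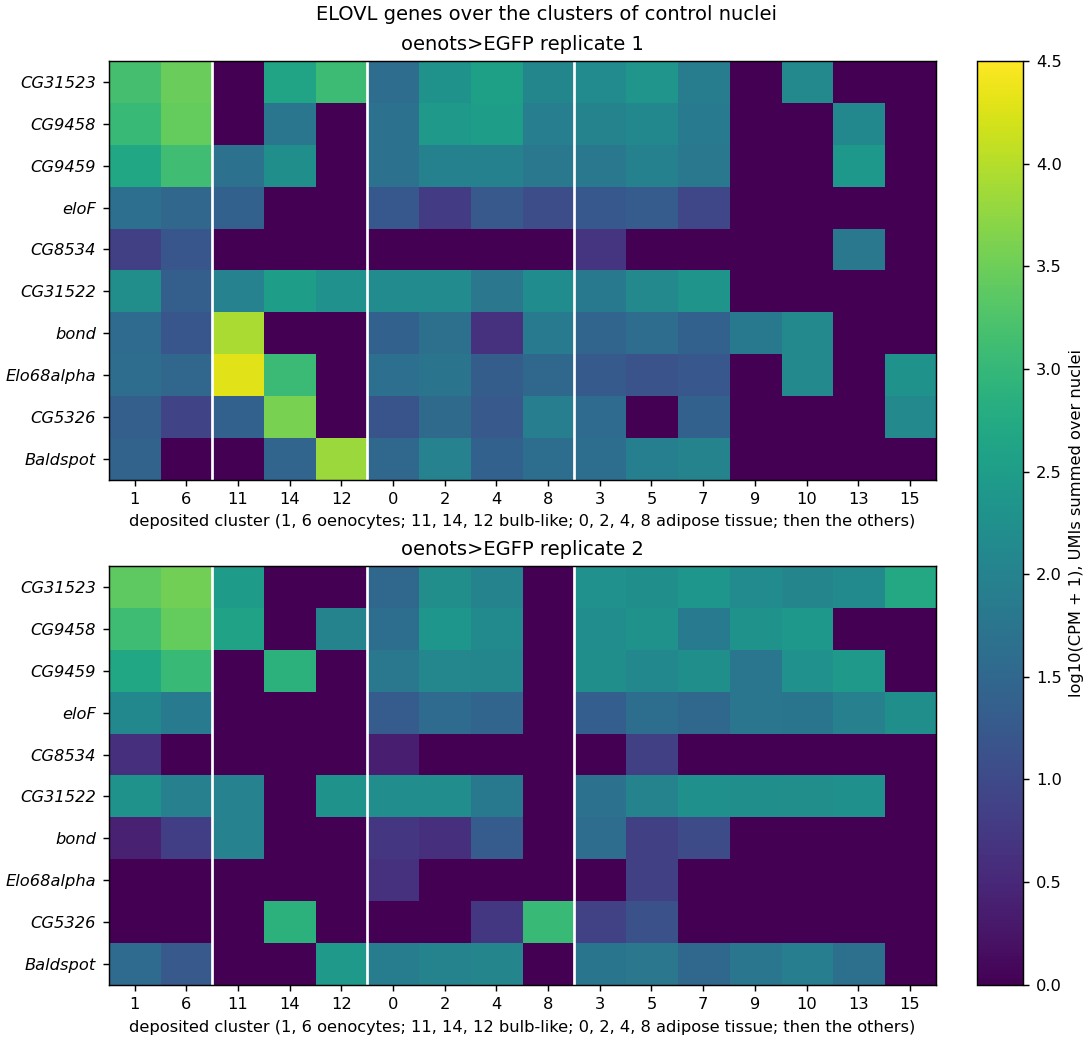
Level of each ELOVL gene, as log10(CPM + 1), in the 16 deposited clusters of control nuclei, 1 panel for each *oenots>EGFP* library, with vertical lines between oenocytes, bulb-like clusters, adipose tissue and the others. *CG31523*, *CG9458* and *CG9459* are bright in clusters 1 and 6 of both libraries, and the bulb-like signals of *bond* and *Elo68alpha* (cluster 11), *CG5326* (14) and *Baldspot* (12) are bright in replicate 1 only.

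Of the oenocyte genes, *CG31523* is a family member of uncharacterised substrate in flies. It stood at 1806 and 2666 CPM in oenocytes of control replicates 1 and 2, against 499 and 86.7 CPM in bulb-like nuclei. Its mean over the control libraries was 2236 ± 608 CPM in oenocytes (SD, n = 2), and in adipose tissue, epidermis, muscle and the other clusters it lay between 103 and 196 CPM. Neighbours in the order muscle, epidermis, other clusters and adipose tissue overlapped, while muscle (217 and 174 CPM) was above adipose tissue (140 and 64.8 CPM) in both libraries. Both oenocyte libraries were above every other tissue. Oenocytes held 73.8% and 87.6% of all its UMIs in the 2 control libraries.

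*CG9458* had 1490 and 1564 CPM in control oenocytes, against 18.5 and 173 CPM in bulb-like nuclei. *CG9459* had 653 and 624 CPM in control oenocytes, against 73.9 and 116 CPM in bulb-like nuclei. For both genes, every tissue outside oenocytes lay below 200 CPM and neighbours in the order of those tissues overlapped, although *CG9459* was higher in muscle (92.2 and 126 CPM) than in adipose tissue (68.1 and 80.5 CPM) in both libraries. Of the UMIs of *CG9458*, 74.2% and 79.2% were in oenocytes, and of those of *CG9459*, 69.9% and 61.4%.

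The 2 oenocyte clusters differed in the levels of these genes. *CG31523* had 2946 and 3454 CPM in cluster 6, and 1495 and 2452 CPM in cluster 1, in replicates 1 and 2. *CG9458* had 2784 and 2702 CPM in cluster 6, and 1138 and 1254 CPM in cluster 1. *CG9459* had 1311 and 1079 CPM in cluster 6, and 474 and 500 CPM in cluster 1. Cluster 6 was the higher one in both libraries for all 3 genes, and its nuclei were also deeper, with medians of 680 and 744 UMIs against 342 and 414 UMIs in cluster 1. *eloF*, in females an elongase of the oenocytes that makes the long dienes used as sex pheromones, went the other way in these males, with 29.5 and 74.6 CPM in cluster 6, and 42.1 and 124 CPM in cluster 1, each sum resting on 4 to 79 UMIs.

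A UMI of *CG31523* was found in 23.3% and 30.5% of control oenocyte nuclei, against 2.07% and 1.12% of adipose nuclei at similar median depth (354 and 432 UMIs, against 354 and 400 UMIs). For *CG9458* the shares were 19.97% and 19.5% of oenocyte nuclei, against 2.44% and 1.55% of adipose nuclei. *CG9458* and *CG9459* were found together in 111 and 31 oenocyte-like nuclei of the *oenots>tsc1,tsc2* libraries, where the product of their separate shares gives 81.0 and 19.6. In the control libraries both were found in 48 and 56 nuclei, where that product gives 32.1 and 37.8. The joint counts were above the product in all 4 libraries, and the part of nuclear depth in this was not tested.

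In bulb-like nuclei, the members were split over 3 clusters. *bond*, which in the male ejaculatory bulb makes very long chain precursors of the pheromone CH503, had 349 UMIs or 8392 CPM in cluster 11 of control replicate 1, and 0 UMIs in clusters 12 and 14. *Elo68alpha*, an elongase of the male bulb linked to the pheromone cis-vaccenyl acetate, had 19669 CPM in cluster 11, 1179 CPM in cluster 14 and 0 UMIs in cluster 12. Of the 79 nuclei of cluster 11 in that library, 75 had a UMI of *bond*, 78 had one of *Elo68alpha* and 74 had both. None of them had a UMI of *Baldspot*, which allows up to 3.80% of nuclei with such a UMI and sets no limit on nuclei that express the gene. *CG5326*, of uncharacterised substrate, had 3940 CPM in cluster 14, where 35 of 69 nuclei had a UMI of it and 11 had one of *Elo68alpha*. *Baldspot*, the fly counterpart of mammalian Elovl6 and known for its part in spermatogenesis, had 6740 CPM in cluster 12, where 27 of 50 nuclei had a UMI of it. Cluster 12 was also the bulb-like cluster in which the oenocyte gene *CG31523* was highest, at 1223 CPM.

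Control replicate 2 did not show this pattern. Its 22 nuclei of cluster 11 had 1 UMI of *bond* and none of *Elo68alpha*, its 38 nuclei of cluster 12 had 5 UMIs of *Baldspot*, and its 11 nuclei of cluster 14 had 4 UMIs of *CG5326*. Over the whole library, *Elo68alpha* had 6 UMIs in replicate 2 and 968 UMIs in replicate 1.

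To set both genotypes side by side, all 4 libraries were clustered together with every ELOVL gene left out of the genes clustered, and clusters were named from other markers. Of the control nuclei in the deposited oenocyte clusters, 99.1% were named oenocyte-like, and 71.7% of those in clusters 11, 12 and 14 were named ejaculatory bulb-like. The same split of the bulb-like genes was then seen in the *oenots>tsc1,tsc2* libraries. In the bulb-like cluster led by *CG7059* and *CG12268*, *bond* had 6423 and 5097 CPM in *oenots>tsc1,tsc2* replicates 1 and 2, against 8322 CPM in *oenots>EGFP* replicate 1. In that cluster *Elo68alpha* had 26042 and 13554 CPM in *oenots>tsc1,tsc2*, against 19578 CPM in *oenots>EGFP* replicate 1. In the cluster led by *Ebp* and *Obp56g*, which encode secreted bulb proteins, *CG5326* had 3747 and 2586 CPM in *oenots>tsc1,tsc2*, against 3759 CPM in *oenots>EGFP* replicate 1. The cluster led by *Obp56d* and *to* had 6 of 18 bulb markers at least 2-fold up, fewer than the 9 in that led by *CG7059* and the 13 in that led by *Ebp*. There *Baldspot* had 9911 and 6787 CPM in *oenots>tsc1,tsc2*, against 4945 CPM in *oenots>EGFP* replicate 1. Each of the 4 genes was thus highest in the same cluster in the 3 libraries whose bulb-like nuclei carried the bulb markers. The 31 nuclei of control replicate 2 that were named bulb-like were all in the last of these clusters, and had 1 UMI of *Baldspot*. They carried 3 of 18 bulb markers at 1259 CPM and 9 of 10 adipose markers at 101059 CPM, against 77667 CPM of adipose markers in the adipose-like nuclei of that library, so their markers go against the name.

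**Figure D2:**
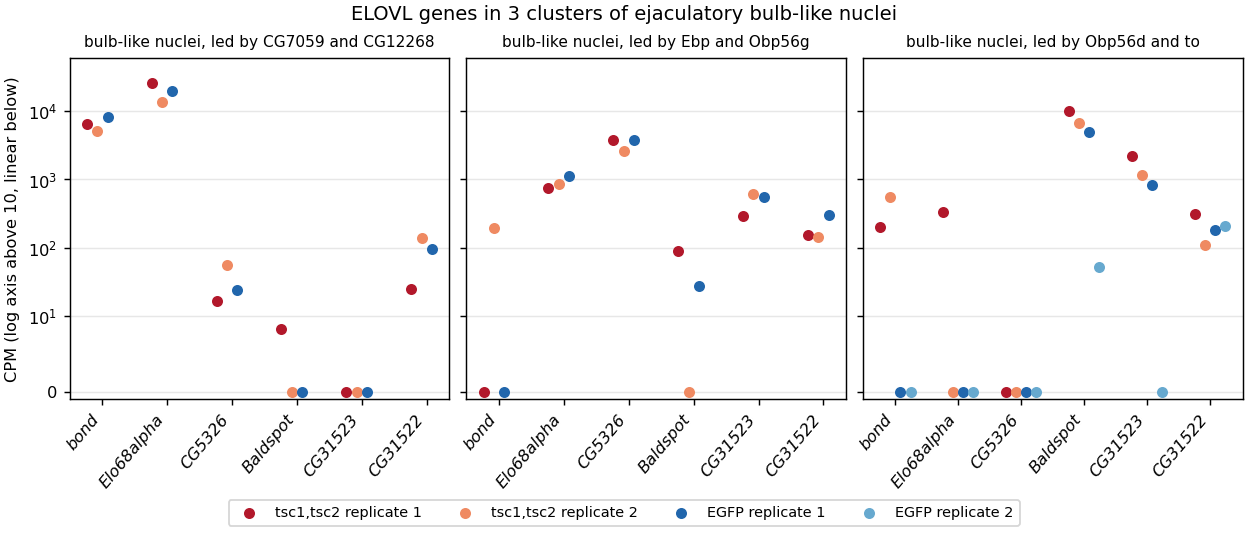
CPM of 6 ELOVL genes (vertical axis, logarithmic above 10 and linear below) in the 3 bulb-like clusters of the joint clustering, 1 point for each library that had nuclei there. *bond* and *Elo68alpha* are high in the first cluster, *CG5326* in the second and *Baldspot* in the third, and the points of *oenots>EGFP* replicate 2, in the third cluster only, lie at 0 to 210 CPM.

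Oenocyte-like nuclei were then compared with bulb-like nuclei over the 4 libraries, with the library as a block, the bulb-like sum of control replicate 2 being the adipose-marked one just described. Of 7 members tested, 4 were higher in oenocyte-like nuclei and 2 were lower (edgeR quasi-likelihood test, adjusted p under 0.05), while 13.8% of all genes were called, 7.36% higher and 6.43% lower. Because the nuclei that were tested were also those that were clustered, these p-values describe how well the sums separate and do not stand for an independent sample of nuclei.

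*CG9458* had 1476 and 1135 CPM in *oenots>tsc1,tsc2* and 1471 and 1522 CPM in *oenots>EGFP* oenocyte-like nuclei, against 20.2, 26.8, 16.4 and 0 CPM in bulb-like nuclei of the same libraries, a log2 fold change of 6.02 ± 0.97 (SE, adjusted p = 5.70e-06, edgeR). It passed the filter on low counts through the oenocyte-like sums alone, so only a higher level there could be called. Whether *eloF*, with 1 and 0 UMIs in the deposited bulb-like clusters of control replicates 1 and 2, passed in the same way was not checked. *CG31523* was higher in oenocyte-like nuclei by 3.25 ± 0.87 on the log2 scale (adjusted p = 0.00527, edgeR), *CG9459* by 3.32 ± 0.84 (adjusted p = 0.00264, edgeR) and *eloF* by 3.00 ± 0.88 (adjusted p = 0.0116, edgeR). The calls of *CG31523* and *CG9459* were lost without either *oenots>tsc1,tsc2* library (adjusted p 0.0527 and 0.0734 for *CG31523*, 0.0988 and 0.0738 for *CG9459*, edgeR), and that of *eloF* without either of them or without *oenots>EGFP* replicate 1 (adjusted p 0.288, 0.145 and 0.0577, edgeR). *Elo68alpha* had 53.9 and 5.50 CPM in *oenots>tsc1,tsc2* and 38.7 and 0 CPM in *oenots>EGFP* oenocyte-like nuclei, against 10903, 6719, 7081 and 0 CPM in bulb-like nuclei of the same libraries. Its log2 fold change was -8.41 ± 1.18 (adjusted p = 3.78e-07, edgeR), and that of *Baldspot* was -5.87 ± 1.13 (adjusted p = 8.29e-05, edgeR). *CG31522* showed no call, at 0.28 ± 0.68 (adjusted p = 0.833, edgeR).

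*bond*, *CG5326* and *CG8534* did not pass the filter on low counts over these sums. Without control replicate 2, *bond* and *CG5326* were tested and lower in oenocyte-like nuclei. Their log2 fold changes were -7.73 (adjusted p = 3.28e-06, edgeR) and -6.47 (adjusted p = 6.87e-06, edgeR). Both passed the filter there through the bulb-like sums alone, so only a lower level in oenocyte-like nuclei could be called. With no filter and all libraries they stood at -6.84 and -6.28. Without control replicate 2, 8 of 9 members tested were called in place of 6 of 7, with *bond* and *CG5326* among them, beside 853 of 4089 genes. The members called with that library were also called without it, in the same direction, with *CG9458* at 5.77, *CG9459* at 3.84, *CG31523* at 2.57, *eloF* at 4.13, *Elo68alpha* at -8.39 and *Baldspot* at -6.87 on the log2 scale. Without *oenots>tsc1,tsc2* replicate 1, in turn, the calls of *CG31523*, *CG9459* and *eloF* were among those lost, as given above. The number of all genes called there was not set beside this.

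Against adipose-like nuclei, 8 members were tested, of which 4 were higher and 1 was lower in oenocyte-like nuclei, beside 33.8% of all genes (15.7% higher, 18.1% lower). The 4 were those higher than in bulb-like nuclei. *CG31523* was 5.74 ± 0.42 higher on the log2 scale (adjusted p = 4.87e-05, edgeR), *CG9458* 5.03 ± 0.51 (adjusted p = 0.000113), *CG9459* 4.12 ± 0.43 (adjusted p = 0.000116) and *eloF* 3.09 ± 0.52 (adjusted p = 0.00160). *Baldspot* was the member lower in oenocyte-like nuclei, at 10.8 and 27.5 CPM in *oenots>tsc1,tsc2* and 19.4 and 31.9 CPM in *oenots>EGFP*, against 60.0, 74.2, 47.9 and 83.3 CPM in adipose-like nuclei of the same libraries. The groups did not overlap, and the log2 fold change was -1.50 ± 0.27 (adjusted p = 0.00225, edgeR). *Elo68alpha* and *CG5326* differed by -0.04 ± 0.32 (adjusted p = 0.938) and -0.40 ± 0.41 (adjusted p = 0.495) (edgeR). Outside the bulb-like nuclei, *Elo68alpha* in *oenots>tsc1,tsc2* replicate 1 stood at 53.9 CPM in oenocyte-like, 46.5 CPM in adipose-like and 105 CPM in epidermis-like nuclei.

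**Figure D3:**
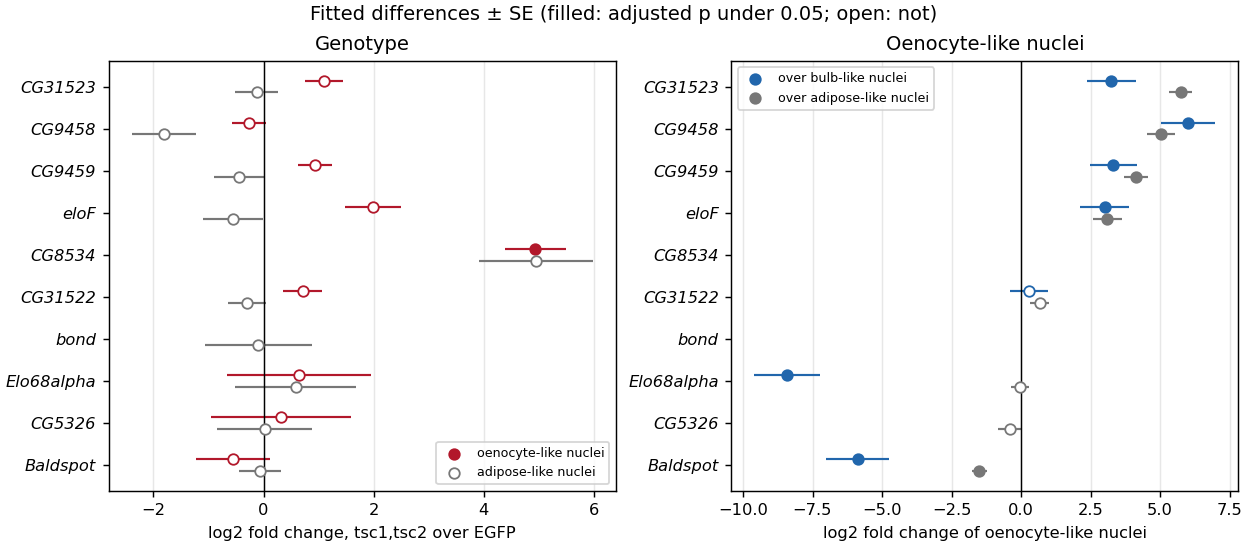
Fitted log2 fold changes with their SE for the 10 genes. The left panel gives *oenots>tsc1,tsc2* over *oenots>EGFP* in oenocyte-like and adipose-like nuclei, where *CG8534* at 4.93 in oenocyte-like nuclei is the 1 filled point, and the right panel gives oenocyte-like over bulb-like and over adipose-like nuclei, where *Elo68alpha* lies at -8.41 and *CG9458* at 6.02 over bulb-like nuclei. Filled points had an adjusted p under 0.05, and genes with no point were not tested.

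Between the genotypes, *CG8534* was higher in *oenots>tsc1,tsc2* in oenocyte-like nuclei. It had 127 and 43 UMIs (196 and 118 CPM) in *oenots>tsc1,tsc2*, against 5 and 2 UMIs (7.44 and 2.36 CPM) in *oenots>EGFP* oenocyte-like nuclei. Both *oenots>tsc1,tsc2* libraries were above both controls, and the log2 fold change was 4.93 ± 0.55 (adjusted p = 0.0147, edgeR). *CG8534* passed the filter on low counts through the *oenots>tsc1,tsc2* sums alone, so only a rise could be called. With no filter it was also called. It was the 1 member called of 9 tested, where 2.97% of 6369 genes were called, 1.37% higher and 1.6% lower. An unadjusted p under 0.05 was found for 4 members, beside 1132 of the 6369 genes (edgeR). A UMI of *CG8534*, an elongase whose substrate is not known, was found in 8.07% (95% Wilson interval 6.74 to 9.63%) and 4.08% (2.86 to 5.80%) of *oenots>tsc1,tsc2* oenocyte-like nuclei, against 0.322% (0.138 to 0.751%) and 0.118% (0.0323 to 0.428%) in *oenots>EGFP*. These intervals cover counting error only.

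UMIs of *CG8534* were also found outside oenocyte-like nuclei. In adipose-like nuclei it had 46.5 and 10.1 CPM (62 and 3 UMIs) in *oenots>tsc1,tsc2*, against 0 and 1.51 CPM (0 and 3 UMIs) in *oenots>EGFP*. In epidermis-like nuclei it had 73.0 and 29.6 CPM in *oenots>tsc1,tsc2*, and 0 UMIs in both *oenots>EGFP* libraries, which allows up to 8.12 and 7.86 CPM. The fitted change in adipose-like nuclei was 4.94 ± 1.04 and was not called (adjusted p = 0.281, edgeR). There too the gene passed the filter on low counts through the *oenots>tsc1,tsc2* sums alone. With no such filter the change was called (4.87, adjusted p = 5.31e-05, edgeR), and without control replicate 2 it stood at 7.95. The difference between the changes in oenocyte-like and adipose-like nuclei was 0.08 ± 1.37 (adjusted p = 0.988, edgeR). Within *oenots>tsc1,tsc2*, its level was higher in oenocyte-like than in adipose-like nuclei of both libraries. How much of the signal outside oenocytes was free RNA was not tested.

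Oenocyte-like nuclei of the genotypes lay in different clusters, which bears on each of these values. In *oenots>tsc1,tsc2*, 1234 of 1376 and 669 of 710 such nuclei were in a cluster led by *Ppr-Y* and *blanks*, which had 6 of 12 oenocyte markers at least 2-fold up. In *oenots>EGFP*, 1319 of 1553 and 1430 of 1699 were in a cluster led by *LpR1* and *mtgo*, with 12 of 12 markers. Within the cluster led by *LpR1*, *CG8534* had 189 and 85.4 CPM in the 132 and 34 nuclei of *oenots>tsc1,tsc2* (13 and 2 UMIs), against 5.94 and 3.11 CPM in *oenots>EGFP* (3 and 2 UMIs). Bulb markers summed to 6913 and 495 CPM in *oenots>tsc1,tsc2* oenocyte-like nuclei, against 1834 and 165 CPM in *oenots>EGFP*, with all 18 detected in both first replicates, and adipose markers to 4373 and 4738 CPM, against 9610 and 6773 CPM. The part of either in the results was not tested.

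**Figure D4:**
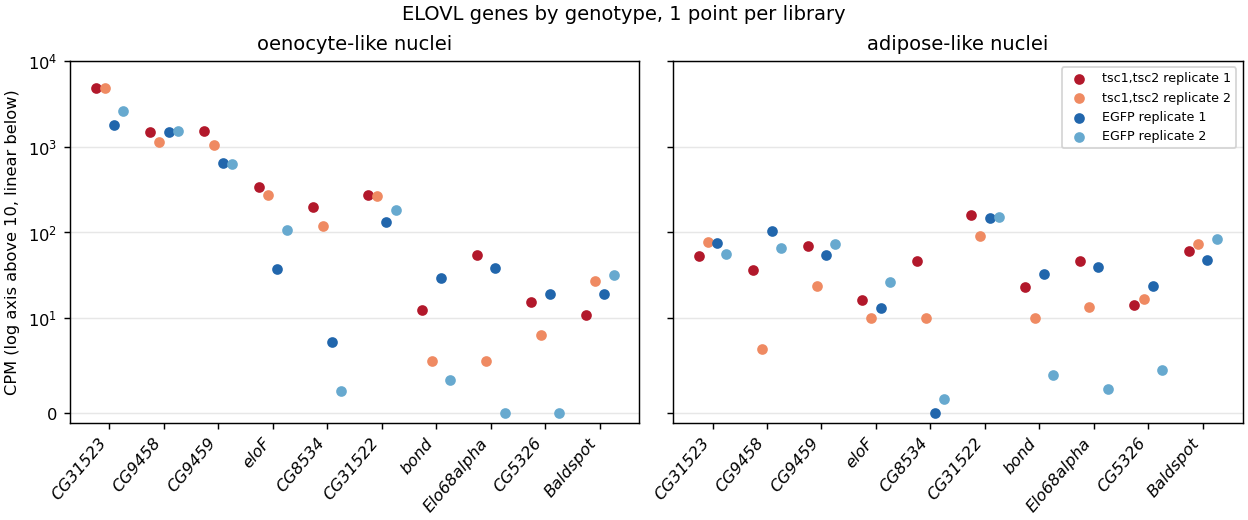
CPM of the 10 genes (vertical axis, logarithmic above 10 and linear below) in oenocyte-like and adipose-like nuclei, 1 point for each library, *oenots>tsc1,tsc2* left of *oenots>EGFP*. In oenocyte-like nuclei the 2 *oenots>tsc1,tsc2* points lie above both *oenots>EGFP* points for *CG31523*, *CG9459*, *eloF*, *CG8534* and *CG31522*, of which the change in *CG8534* (196 and 118 CPM, against 7.44 and 2.36 CPM) was called. With 2 libraries per genotype, such a separation is weak evidence, and its share over all genes was not counted.

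*eloF* had 336 and 275 CPM in *oenots>tsc1,tsc2* oenocyte-like nuclei, against 37.2 and 107 CPM in *oenots>EGFP*. The groups did not overlap, but the change of 1.99 ± 0.51 on the log2 scale was not called over all genes (adjusted p = 0.0924, edgeR). It was called under 5 of 12 alternatives, among them without *oenots>EGFP* replicate 2 (2.95, adjusted p = 0.0249, edgeR) and with DESeq2 (1.97, adjusted p = 0.00415), with adjusted p between 0.000361 and 0.317 over all 12. In adipose-like nuclei *eloF* had 16.5 and 10.1 CPM in *oenots>tsc1,tsc2*, against 13.1 and 26.1 CPM in *oenots>EGFP*, a change of -0.56 ± 0.54 (adjusted p = 0.863, edgeR). The 10.1 CPM of *oenots>tsc1,tsc2* replicate 2 lie at the limit of 3 counts. The change in oenocyte-like nuclei exceeded that in adipose-like nuclei by 2.52 ± 0.54 (adjusted p = 0.0171, edgeR), the 1 call among 10 members in a test of the difference that called 2.92% of all genes, 1.59% higher and 1.32% lower. That call was lost without either control library (2.29 with adjusted p = 0.190 without replicate 1, 2.91 with adjusted p = 0.113 without replicate 2, edgeR).

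*CG31523* had 4809 and 4886 CPM in *oenots>tsc1,tsc2* oenocyte-like nuclei, against 1775 and 2619 CPM in *oenots>EGFP*. The change of 1.10 ± 0.35 was not called (adjusted p = 0.159, edgeR), and was called under 2 of 12 alternatives, of which 1 was DESeq2 (1.06, adjusted p = 0.0246). *CG9459* had 1519 and 1039 CPM in *oenots>tsc1,tsc2*, against 649 and 621 CPM in *oenots>EGFP*, a change of 0.93 ± 0.32 (adjusted p = 0.178, edgeR). The groups of both genes did not overlap, and the share of all genes whose groups do not overlap was not counted. The other oenocyte gene, *CG9458*, had 1476 and 1135 CPM in *oenots>tsc1,tsc2*, against 1471 and 1522 CPM in *oenots>EGFP*, a change of -0.26 ± 0.31 (adjusted p = 0.740, edgeR). *CG31522* had 273 and 264 CPM in *oenots>tsc1,tsc2*, against 131 and 184 CPM in *oenots>EGFP*, a change of 0.71 ± 0.35 (adjusted p = 0.364, edgeR). *Baldspot*, *Elo68alpha* and *CG5326* had at most 53.9 CPM in any oenocyte-like sum and were not called, and *bond*, with 23 UMIs in *oenots>EGFP* and 10 in *oenots>tsc1,tsc2* over both libraries, did not pass the filter. Over the 9 members tested the median change was 0.71, against 0.02 over all genes tested. The members tested include *Elo68alpha*, *CG5326* and *Baldspot*, whose signs turned when a library was left out. Of the 5 other ELOVL genes tested, 4 were negative and 1 was positive, with a median of -0.31.

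In adipose-like nuclei no gene was called by edgeR (0 of 7671), with 679 at an unadjusted p under 0.05, of which 2 were members, and DESeq2 called 59 genes and no member. *CG9458* was the second of these members, with 36.7 and 6.75 CPM in *oenots>tsc1,tsc2*, against 105 and 65.2 CPM in *oenots>EGFP*, a change of -1.81 ± 0.58 (adjusted p = 0.419, edgeR). Adipose-like nuclei also lay in different clusters by genotype, with 2313 of 3005 and 488 of 592 nuclei of *oenots>tsc1,tsc2* in a cluster that held 6 and 0 nuclei of *oenots>EGFP*.

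In bulb-like nuclei no gene was called by edgeR (0 of 1205), with 29 at an unadjusted p under 0.05 and none of the 6 members tested among them, and DESeq2 called 2 genes and no member. *bond* had 2646 and 2624 CPM in *oenots>tsc1,tsc2*, against 2867 and 0 CPM in *oenots>EGFP*. Without control replicate 1, which leaves the adipose-marked sum as the control, 5 of 7 members tested were called, beside 306 of 1319 genes. Without control replicate 2 none was called, and *bond* differed by 0.23 (adjusted p = 0.858, edgeR). *CG5326* had 1419 and 750 CPM in *oenots>tsc1,tsc2*, against 1117 CPM in *oenots>EGFP* replicate 1, which lay between them.

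Over all nuclei together, where fewer nuclei of a type and less RNA per nucleus cannot be told apart, no gene was called by edgeR (0 of 9546), with 1456 at an unadjusted p under 0.05, 5 of them members, and DESeq2 called 381 genes, of which *CG8534* was the 1 member. *CG8534* had 306 and 62 UMIs in *oenots>tsc1,tsc2*, against 8 and 5 UMIs in *oenots>EGFP*, a change of 4.94 ± 0.48 (adjusted p = 0.0801, edgeR). Leaving out a library, the change ran from 0.33 to 4.08 for *bond*, 0.92 to 8.51 for *Elo68alpha* and 0.36 to 4.36 for *CG5326*. Over all nuclei, control replicate 2 held 40, 6 and 16 UMIs of these genes, against 443, 968 and 212 in control replicate 1. The part of the number of bulb nuclei in this was not tested.

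Of the members, 4 lie in 1 stretch of chromosome arm 3R in Release 6 of the genome, with 1 further ELOVL gene, *CG16904*, between them and no other protein-coding gene. *CG8534* (3R:9812747-9813939, plus strand, 2 exons) is followed after 221 bases by *eloF* (3R:9814161-9815158, plus strand, 2 exons). *CG16904* (3R:9815928-9816979), *CG9459* (3R:9817428-9818395) and *CG9458* (3R:9818914-9819877) follow on the minus strand, also with 2 exons each. These neighbours did not move alike between the genotypes in oenocyte-like nuclei. *CG8534* changed by 4.93 and *CG16904* by -2.14 ± 0.31 on the log2 scale, each called (adjusted p = 0.0147 and 0.0267, edgeR), and the values of *eloF*, *CG9459* and *CG9458* were 1.99, 0.93 and -0.26. *CG16904* had 2295 and 1877 CPM in *oenots>tsc1,tsc2* oenocyte-like nuclei, against 8036 and 9540 CPM in *oenots>EGFP*, so that the libraries did not overlap. The 5 genes are paralogs, and a read that matches more than 1 of them cannot be told apart.

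*CG31522* (3R:4441415-4462883, minus strand) and *CG31523* (3R:4465421-4479207, minus strand) are neighbours 2537 bases apart, with no protein-coding gene between them. *CG31523* was 5.74 higher in oenocyte-like than in adipose-like nuclei on the log2 scale, while *CG31522* differed by 0.66 ± 0.33 and was not called (adjusted p = 0.155, edgeR). *CG5326* (3R:22532174-22539919, minus strand) and *bond* (3R:22550680-22556494, plus strand) lie 10760 bases apart with 1 protein-coding gene between them, and *sit*, a further ELOVL gene, lies 1847 bases past *bond*. In *oenots>EGFP* replicate 1 *bond* was high in bulb-like cluster 11 and *CG5326* in cluster 14. *Elo68alpha* (3L:11101875-11103030, minus strand) and *Baldspot* (3L:16648442-16661615, minus strand) lie on arm 3L. No member overlaps another counted gene in the annotation.

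Of the other ELOVL genes, 5 of 10 were tested in oenocyte-like nuclei between the genotypes, and *CG16904* and *CG30008* were called, both lower, beside 1.6% of all genes. *CG30008* had 2449 and 2067 CPM in *oenots>tsc1,tsc2*, against 6136 and 7058 CPM in *oenots>EGFP*, a change of -1.61 ± 0.31 (adjusted p = 0.0451, edgeR). Against bulb-like nuclei, *CG16904*, *CG18609* and *CG30008* were higher in oenocyte-like nuclei and *sit* and *ELOVL* were lower, of 5 tested, beside 7.36% of all genes higher and 6.43% lower. Outside both tissues, epidermis held 70.4% and 68.4% of the UMIs of *CG33110* in the 2 control libraries and 37.2% and 62.0% of those of *ELOVL*.

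The 4 enzymes that complete the elongation cycle were tested in each comparison. None was called between genotypes in oenocyte-like nuclei, with *Sc2*, the enoyl reductase, at 1.10 ± 0.32 (adjusted p = 0.127, edgeR). Against adipose-like nuclei, where 15.7% of all genes were higher, 3 of the 4 were higher in oenocyte-like nuclei, namely *spidey*, the ketoreductase (3.43 ± 0.33, adjusted p = 9.31e-05), *Hacd1*, a dehydratase (3.65 ± 0.29, adjusted p = 5.58e-05) and *Sc2* (4.00 ± 0.53, adjusted p = 0.000431, edgeR). Against bulb-like nuclei none of the 4 was called, with values between 0.41 and 2.05 on the log2 scale, of which that of *Sc2* had an unadjusted p under 0.05 (0.0194, adjusted p = 0.109, edgeR).

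Of 6 genes that supply malonyl-CoA and fatty acids, 1 was lower in *oenots>tsc1,tsc2* oenocyte-like nuclei and none was higher, beside 1.6% of all genes lower and 1.37% higher. It was *FASN3*, an oenocyte fatty acid synthase and one of the markers used to name the oenocytes, at 2966 and 4768 CPM in *oenots>tsc1,tsc2*, against 16273 and 22266 CPM in *oenots>EGFP* (-2.33 ± 0.43, adjusted p = 0.0440, edgeR). Of 8 genes for hydrocarbon synthesis and acyl-CoA reduction, 6 were tested and 3 were lower, beside the same 1.6% of all genes, the fatty acyl-CoA reductase genes *FarO* (-3.00 ± 0.34, adjusted p = 0.0147), *CG17560* (-3.83 ± 0.35, adjusted p = 0.00835) and *CG17562* (-1.92 ± 0.36, adjusted p = 0.0450, edgeR), and none was higher. *CG17560* is likewise an oenocyte marker of the naming list. The called member, *CG8534*, for which only a rise could be called, thus changed in the opposite direction to the called genes of these lists. The further ELOVL genes that were called, *CG16904* and *CG30008*, were lower, as the called genes of these lists were.

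The genes whose pattern over the 16 control clusters was most like that of a member were found among 6586 genes with at least 100 control UMIs, by Pearson's r of log2(CPM + 10). They were *CG43861* for *Elo68alpha* (r = 0.963), *CG8630* for *bond* (r = 0.873), *Obp56g* for *CG5326* (r = 0.929, with *Ebp* at 0.929 next) and *Snmp2* for *Baldspot* (r = 0.887). For the oenocyte genes they were *Brf* for *CG9458* (r = 0.954), *CG16799* for *CG9459* (r = 0.936) and *Tina-1* for *CG31523* (r = 0.837). *CG31522* and *eloF* were most like *lbk* (r = 0.921) and *nAChRalpha7* (r = 0.909), and *CG8534* had too few control UMIs. The 16 points share libraries and differ in depth, so the values are descriptions.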

How the data were processed

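Libraries were 10x snRNA-seq of male abdominal cuticle, 2 per genotype. The deposited counts are UMIs per gene and nucleus that the authors made with Cell Ranger 3.1.0 on a pre-mRNA reference, cleaned of ambient RNA with SoupX 0.3.1 at a fixed contamination of 0.45, and filtered on total counts. Removing a fixed share can lower genes that are low everywhere. The authors' clusters, deposited for *oenots>EGFP* nuclei, came from Seurat 3.1.2 with Harmony, and the embedding scores the authors deposited beside them were not used.

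Counts were summed over the nuclei of a cluster or class in each library. Joint classes used 2000 variable genes without the ELOVL family, 30 components, 20 neighbours and Leiden clustering (leidenalg 0.10.2, resolution 0.4, Python 3.11.15), named from at least 3 markers raised 2-fold. No doublet caller was run, and 279 barcodes occurred in more than 1 library. Sums were tested with edgeR 4.0.16 (quasi-likelihood test, TMM, low-count filter, Benjamini-Hochberg adjustment at 0.05, R 4.3.3), with the library as a block between tissues, since both tissues came from the same animals (correlation of deviations 0.466 in *oenots>tsc1,tsc2* and 0.623 in *oenots>EGFP* over 6579 genes). A minimum of 5000 UMIs per sum was set after seeing the data. The test was checked on simulated counts. Alternatives were DESeq2 1.42.0, other filters and scalings, other class definitions, a replicate block and leaving out each library. The members and lists were chosen with earlier results of these data known, and all members are described. The limit printed for a count of 0 is 3 counts.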

Additional observations from a re-analysis of the deposited data

Results flagged for a closer look

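The change of *eloF* between *oenots>tsc1,tsc2* and *oenots>EGFP* differed between tissues, being 2.52 larger on the log2 scale in oenocyte-like than in adipose-like nuclei by a test of the difference itself (adjusted p = 0.0171, edgeR). The call was lost without either *oenots>EGFP* library, and the adipose-like level of *oenots>tsc1,tsc2* replicate 2 lay at the limit of 3 counts.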

How the results depend on the processing

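Precision is limited by 2 libraries per genotype and by low UMI counts of *CG8534*, *bond*, *Elo68alpha* and *CG5326* outside their main tissue. The change of *CG8534* in oenocyte-like nuclei was called under the 11 alternatives in which it was tested (4.26 to 5.81), and with at least 10 counts in every sum it was not tested. Replicate numbers were given in accession order and only name the libraries, so the replicate block is no pairing from the design. Same-numbered libraries of the genotypes had correlated deviations (0.258 in oenocyte-like, 0.267 in adipose-like and 0.328 in all nuclei), over 2 pairs.

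Members called between genotypes in oenocyte-like nuclei were 1, against 3 with DESeq2, 2 with no filter, 3 with the replicate block (*eloF* and *CG31523* beside *CG8534*) and 1 to 2 leaving out a library, while all genes called ranged from 68 to 692 around 189. In adipose-like nuclei 2 (*CG8534* and *CG9458*) were called with no filter and 0 to 1 leaving out a library, and in bulb-like nuclei 0 to 5. Over all nuclei 1 was called with DESeq2, with no filter and with the replicate block, and 0 to 4 leaving out a library. Between oenocyte-like and bulb-like nuclei, 2 to 8 were called leaving out a library. With at least 10 counts in every sum no member was tested there, so 0 were called. Against adipose-like nuclei, 1 of 2 members tested was called at that minimum and 5 to 6 leaving out a library, and for the difference between tissues 0 of 2 tested and 0 to 3. The members that lost a call at that minimum were not tested, and for the other settings the cause was not tested. Most of these counts stand without the number of all genes called under the same setting. They therefore describe the settings and are not results about the members.

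Thinned to 200 UMIs, the percentage of control oenocyte nuclei with a UMI was 16.3 for *CG9458*, 7.46 for *CG9459*, 3.50 for *CG31522*, 0.436 for *Baldspot* and 0.0636 for *CG8534*, against 19.7, 10.9, 6.82, 1.15 and 0.227 unthinned.

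Signs that turned were all of values that were not called. In adipose-like nuclei between genotypes they were *bond* at 0.040 (library totals), 0.012 (members kept) and 0.11 (vote), *CG5326* at -0.016 (DESeq2), -0.044 (no filter), -0.28 (resolution 0.1) and -0.054 (members kept), *Baldspot* at 0.0071 (library totals) and 0.017 (replicate block), *CG31523* at 0.30 (resolution 0.1) and 0.70 (vote), *eloF* at 0.34 and *CG9459* at 0.40 (vote). In bulb-like nuclei they were *bond* at -0.056 (resolution 0.1) and *CG31522* at 0.24 (DESeq2) and 0.18 (no filter). *Elo68alpha* stood at 0.034 against adipose-like nuclei (resolution 0.1), and in the difference between tissues *Elo68alpha* at -0.40 and *CG8534* at -0.32 (vote), and *CG5326* at -0.12 (members kept). Leaving out a library gave, in oenocyte-like nuclei, *Elo68alpha* -1.61 to 7.19, *CG5326* -0.76 to 0.49 and *Baldspot* -1.50 to 0.20. In adipose-like nuclei it gave *bond* -0.98 to 2.09, *Elo68alpha* -0.60 to 3.61, *CG5326* -0.82 to 1.68, *Baldspot* -0.37 to 0.33 and *CG31523* -0.46 to 0.26, and in bulb-like nuclei *CG31522* -0.13 to 0.59. Against adipose-like nuclei *Elo68alpha* ran from -0.28 to 0.036, and in the difference between tissues *Elo68alpha* from -0.89 to 4.32, *CG8534* from -3.28 to 1.67, *CG5326* from -0.16 to 4.90 and *Baldspot* from -1.24 to 0.058.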
